A study of Mus musculus with 4 samples.

Results

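Expression of 10 CXC chemokine genes was followed across the 4 arrays of the series: Cxcl1, Cxcl2, Cxcl3, Cxcl5, Cxcl9, Cxcl10, Cxcl11, Cxcl13, Cxcl14 and Cxcl16. They were taken by symbol from the platform annotation, and each was measured by 1 probe set that carries no other symbol. They are 10 of 19938 genes named on the array. With a floor of 6 on the log2 scale for the highest of the 4 arrays, 9 of the 10 passed together with 12526 genes in all, and Cxcl14 did not. RNA came from colon epithelial cells of C57BL/6 mice aged 6 to 8 weeks, released by shaking the opened colon in EDTA. All 4 groups had received azoxymethane (10 mg/kg), a colon carcinogen, and 5 days later dextran sulfate sodium (3.5% in drinking water for 5 days), which damages the colonic lining, and were sampled on day 12. The arrays, 1 per group, are labelled wild type (WT), Bmi1ΔIEC (Bmi1_KO), Mel18ΔIEC (Mel18_KO) and Bmi1ΔIEC Mel18ΔIEC (DKO), and each short name stands for the array so labelled. Both deleted genes, Bmi1 and Mel18 (symbol Pcgf2), code for Polycomb group ring finger proteins, which take part in silencing chromatin. The sources used here name neither the promoter that drove the deletions, nor the deleted exons, nor the number of mice behind an array. An untreated group was not analysed here, so every value belongs to the injured colon.

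Chemokines are small secreted proteins that guide white blood cells along concentration gradients. CXC ligands that carry the amino acids ELR before the first cysteines, among them Cxcl1, Cxcl2, Cxcl3 and Cxcl5, act on the receptor Cxcr2 and draw neutrophils, and their genes are switched on by NF-kB downstream of interleukin-1, tumour necrosis factor and interleukin-17. Cxcl9, Cxcl10 and Cxcl11 lack ELR, are induced by interferons and act on Cxcr3 of activated T cells and natural killer cells. Cxcl13 draws B cells through Cxcr5, Cxcl16 is a membrane-anchored ligand of Cxcr6, and Cxcl14 is made by resting epithelia. In the reference annotation Cxcl11 is listed as a transcribed pseudogene. C57BL/6 mice carry a broken reading frame in this gene, so its probe set reads a transcript and not a working chemokine.

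Because the ELR ligands and the interferon-induced ligands are known for different inducers, their promoters are shown before the values. The sequences are RefSeq's on GRCm38.p6, from 250 bases before to 50 bases after the annotated start, and 7 of the 10 members matched (Cxcl1, Cxcl2, Cxcl3, Cxcl9, Cxcl10, Cxcl13 and Cxcl14). The 5 printed here are those of the ELR and interferon-induced groups. Capitals mark matches on either strand to the NF-kB consensus, to GAAANNGAA, a form of the interferon-stimulated response element (ISRE), or to TTCNNNGAA, the form bound by STAT factors.
Cxcl1, chr5:90890995-90891294, plus strand: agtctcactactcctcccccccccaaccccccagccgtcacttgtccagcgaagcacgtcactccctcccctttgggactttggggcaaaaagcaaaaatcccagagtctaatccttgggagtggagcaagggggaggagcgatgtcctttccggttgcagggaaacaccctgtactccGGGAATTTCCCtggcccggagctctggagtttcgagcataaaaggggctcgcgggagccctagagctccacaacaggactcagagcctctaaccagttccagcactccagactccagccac
Cxcl2, chr5:90903649-90903948, plus strand: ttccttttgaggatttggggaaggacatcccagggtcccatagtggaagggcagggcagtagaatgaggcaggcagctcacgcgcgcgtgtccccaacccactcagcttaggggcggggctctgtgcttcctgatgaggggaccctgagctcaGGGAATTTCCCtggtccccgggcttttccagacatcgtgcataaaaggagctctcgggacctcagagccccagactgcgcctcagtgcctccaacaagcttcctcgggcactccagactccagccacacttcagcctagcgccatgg
Cxcl3, chr5:90785851-90786150, plus strand: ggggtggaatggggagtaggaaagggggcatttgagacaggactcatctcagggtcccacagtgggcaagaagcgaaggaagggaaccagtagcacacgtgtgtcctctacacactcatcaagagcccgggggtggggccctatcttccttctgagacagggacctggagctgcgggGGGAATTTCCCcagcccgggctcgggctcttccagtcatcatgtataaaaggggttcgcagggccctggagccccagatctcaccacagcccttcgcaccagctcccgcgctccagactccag
Cxcl9, chr5:92328030-92328329, minus strand: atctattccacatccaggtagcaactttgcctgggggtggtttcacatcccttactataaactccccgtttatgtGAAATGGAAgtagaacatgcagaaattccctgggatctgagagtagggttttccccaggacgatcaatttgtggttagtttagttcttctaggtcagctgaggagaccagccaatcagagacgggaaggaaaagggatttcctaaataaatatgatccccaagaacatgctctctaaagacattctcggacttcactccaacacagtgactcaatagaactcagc
Cxcl10, chr5:92348840-92349139, minus strand: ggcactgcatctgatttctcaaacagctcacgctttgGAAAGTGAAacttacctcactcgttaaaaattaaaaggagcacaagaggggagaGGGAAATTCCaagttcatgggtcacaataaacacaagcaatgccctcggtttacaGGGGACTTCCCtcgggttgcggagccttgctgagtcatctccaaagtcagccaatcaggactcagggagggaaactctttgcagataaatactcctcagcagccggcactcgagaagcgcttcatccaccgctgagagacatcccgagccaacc
Cxcl1, Cxcl2 and Cxcl3 share the run GGGAATTTCC, whose first base lies 71, 97 and 73 bases before the start of transcription. The run matches the NF-kB consensus on both strands, shifted by 1 base, so each capital stretch holds 2 overlapping matches. It was picked after it had been seen in the members, and 29 of 32851 promoters in the table (0.0883%) hold it. The NF-kB consensus itself was in 8.46% of these promoters, the ISRE form in 8.56%, and the STAT form, which none of the 5 printed windows holds, in 8.30%. Cxcl10 held the ISRE form 213 bases before its start, an NF-kB match 159 bases before it and a set of overlapping ones from 104 bases before it. Cxcl9 held the ISRE form 175 bases before its start and no NF-kB match. These forms replaced others that had been searched first. A looser NF-kB form, in 20.7% of promoters, was also matched in Cxcl9 and Cxcl13, and a longer ISRE form, in 3.44%, was matched in Cxcl10 and Cxcl14 but not in Cxcl9. TATAAA, the TATA box (13.6% of promoters, not capitalised), lay 30 bases before the start of Cxcl3, 46 before that of Cxcl13 and 195 before that of Cxcl9. A match is a description of the letters and not a measured site.

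The 4 arrays had median intensities between 67.0 and 72.96 over 35556 probe sets. With 1 array per genotype no difference has a replicate check, no test was made, and a fold is called here when it reaches 2. The contrasts among the 4 arrays put an upper bound of 0.407 log2 units on the typical error of a difference between 2 arrays. This error scale describes a typical gene and is no cutoff, so a difference that exceeds it has not been tested. DKO correlated with the other arrays at 0.878 to 0.906 (Pearson, across genes), whereas the other pairs lay between 0.978 and 0.982. The probe sets of Bmi1 and Pcgf2 do not bear out the labels, and the deleted exons are unknown. On the log2 scale Bmi1 had intensities of 7.25 (WT), 6.999 (Mel18_KO), 7.43 (Bmi1_KO) and 7.64 (DKO), and Pcgf2 lay between 6.72 and 6.96, so Bmi1 read highest on the arrays labelled Bmi1ΔIEC Mel18ΔIEC and Bmi1ΔIEC. Each direction given here, and each mention of a single deletion or a loss, rests on the label of its array. The WT array carried seminal vesicle transcripts (8 of 9 listed genes at least 2-fold higher than on each deletion array, with Spink1 as the exception), and their part in the differences from WT was not tested. For that reason DKO is also compared with the mean of the single deletions, a comparison in which WT plays no part.

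On the array labelled DKO, every one of the 10 chemokine probe sets read higher than on each other array. Against WT, 8 of 10 reached 2-fold upward and 0 downward, where 7.33% of all 12526 analysed genes did so upward and 8.19% downward. Against the mean of the single deletions 9 of 10 were at least 2-fold higher and 0 lower, with a background of 7.33% higher and 6.51% lower. The median difference of the 10 members was 1.88 against WT and 1.97 against the single deletions, beside -0.05 and -0.07 over all analysed genes. After cyclic loess the split of all genes against the single deletions went from 918 higher and 816 lower to 1047 and 555, and after median centring to 846 and 967. The split against WT went from 918 and 1026 to 1020 and 794 after cyclic loess and to 826 and 1235 after median centring. The members' counts stayed at 9 and 0 and at 8 and 0 under both. The members and the comparison were chosen with earlier results of these data known.

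**Figure D1:**
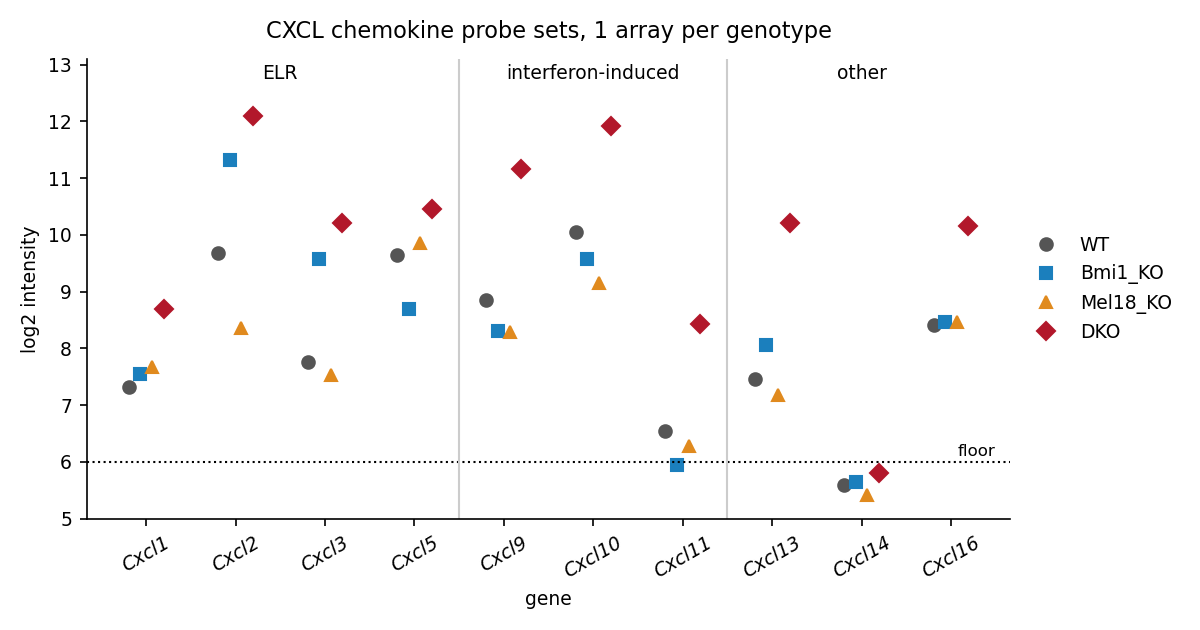
Log2 intensity (vertical axis) of each of the 10 chemokine probe sets (horizontal axis) on the arrays of WT, Bmi1_KO, Mel18_KO and DKO, with 1 point per array and the floor of 6 dotted. The DKO diamond is the highest point for each gene, and all 4 points of Cxcl14 lie under the floor.

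Among the neutrophil-drawing ELR ligands, Cxcl2 and Cxcl3 were high on both arrays labelled with Bmi1 deletion, while Cxcl5 was lowest on Bmi1_KO. Cxcl2, an early neutrophil attractant of macrophages and epithelium, had log2 intensities of 9.69 (WT), 8.37 (Mel18_KO), 11.33 (Bmi1_KO) and 12.10 (DKO). Its 4 values are spread over 3.74 log2 units, the widest range of the 10 members, and Mel18_KO is the low end. Against WT it was 5.35-fold higher on DKO and 3.12-fold higher on Bmi1_KO, and 2.50-fold lower on Mel18_KO. Cxcl3, a close relative of Cxcl2, had log2 intensities of 7.75 (WT), 7.54 (Mel18_KO), 9.57 (Bmi1_KO) and 10.21 (DKO). Its values fall into a high pair and a low pair, and the members of each pair differ by 0.63 and 0.22. Cxcl3 was 5.47-fold higher on DKO than on WT and 3.53-fold higher on Bmi1_KO, where 6 of the analysed genes had a larger difference.

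Cxcl1 and Cxcl5 varied less and in another order. Cxcl1, the ligand known in mice as KC, had log2 intensities of 7.31 (WT), 7.66 (Mel18_KO), 7.55 (Bmi1_KO) and 8.69 (DKO). Only the DKO value stands apart, at 2.59 times the WT intensity, and the other 3 arrays lie within the error scale of one another. Cxcl5, an ELR ligand of inflamed epithelium, had log2 intensities of 9.64 (WT), 9.85 (Mel18_KO), 8.70 (Bmi1_KO) and 10.46 (DKO). Here Bmi1_KO is the low array, 1.92-fold under WT (-0.94) and 2.22-fold under Mel18_KO (-1.15), where 16 genes of 12526 had a lower difference from Mel18_KO. DKO was 1.77-fold above WT, short of 2-fold, and 2.27-fold above the mean of the single deletions.

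On Bmi1_KO against WT, then, 2 of the 10 members (Cxcl2 and Cxcl3) were at least 2-fold higher and 0 lower, where the background was 0.551% higher and 0.359% lower. Centring each array on its median turned the split of all genes from 69 higher and 45 lower to 45 and 52 and put Cxcl5 past 2-fold lower at -1.01. On Mel18_KO against WT, 0 members were at least 2-fold higher and 1 (Cxcl2) was lower, with a background of 0.144% and 0.814%. Between the single deletions, Bmi1_KO exceeded Mel18_KO at least 2-fold for Cxcl2 (7.79-fold) and Cxcl3 (4.09-fold), with a background of 1.53%, and lay below it for Cxcl5, with a background of 0.224%. Bmi1_KO and Mel18_KO are each compared with the same WT array, so these differences are not independent of one another.

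**Figure D2:**
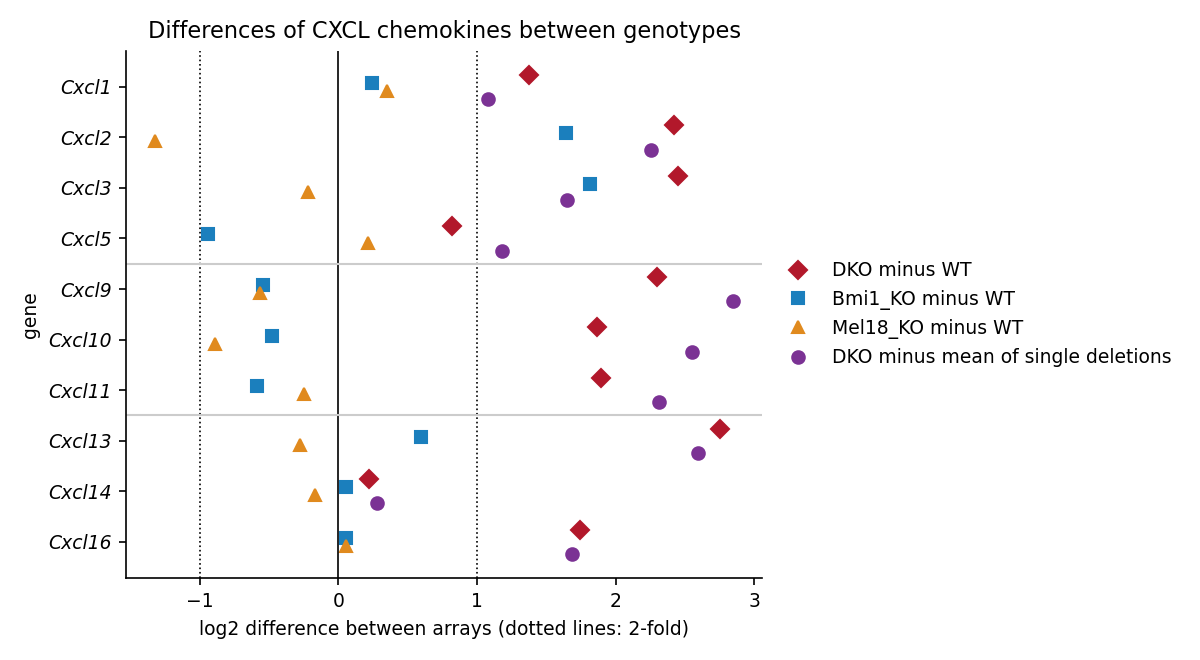
Log2 difference (horizontal axis) of each member (vertical axis) for DKO, Bmi1_KO and Mel18_KO minus WT and for DKO minus the mean of the single deletions, 1 point per difference, with 2-fold dotted. Red and purple points lie to the right of 0 for all 10 genes, while blue points are at 1.64 and 1.82 for Cxcl2 and Cxcl3 and below 0 for Cxcl5, Cxcl9, Cxcl10 and Cxcl11.

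The interferon-induced ligands had another shape: high on DKO and, on both single deletions, a little under WT. Cxcl9, a ligand whose main inducer is interferon-gamma, had log2 intensities of 8.86 (WT), 8.30 (Mel18_KO), 8.31 (Bmi1_KO) and 11.16 (DKO). The single deletions are level with each other (0.02 apart) and lie 0.55 and 0.56 under WT. DKO exceeded WT 4.91-fold and the mean of the single deletions 7.21-fold. Cxcl10, induced by interferons of either type and by NF-kB, had log2 intensities of 10.05 (WT), 9.16 (Mel18_KO), 9.57 (Bmi1_KO) and 11.91 (DKO). The order is that of Cxcl9, and DKO lay 3.65-fold above WT and 5.86-fold above the single deletions. Cxcl11 had log2 intensities of 6.54 (WT), 6.29 (Mel18_KO), 5.95 (Bmi1_KO) and 8.43 (DKO). The Bmi1_KO value is under the floor, so the low side of its fold over the single deletions (4.97) is rough. All 3 genes lay below WT on both single deletions, between -0.25 and -0.89, and 0 of them reached 2-fold. Of these 6 differences, 5 exceed the error scale of 0.407, that of Cxcl11 on Mel18_KO (-0.25) being smaller.

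Set against each other by their differences, the ELR and interferon-induced groups had the same median on DKO against WT (1.896 for each), although leaving out 1 gene at a time moved the difference of the medians between -0.52 and 0.52. On Bmi1_KO against WT the ELR median was 0.94 and the interferon-induced median -0.55, a gap of 1.49 that ranged from 0.79 to 2.19 when 1 gene was left out. The ELR median stands for no single gene there, because Cxcl2 and Cxcl3 lay at 1.64 and 1.82 while Cxcl1 and Cxcl5 lay at 0.24 and -0.94. On Mel18_KO the gap was 0.56, with medians of 0.00 and -0.56. On DKO against the mean of the single deletions the order turned, with 1.42 for the ELR ligands and 2.55 for the interferon-induced ligands, a gap of -1.13. Within the interferon-induced group the centred profiles over the 4 arrays were 0.42 to 0.59 log2 units apart (Euclidean distance). Within the ELR group they were 0.91 (Cxcl2 and Cxcl3) to 3.13 (Cxcl2 and Cxcl5) apart. Cxcl2 and Cxcl3 form a pair there, and Cxcl5 was the ELR ligand nearest to Cxcl1 (0.92). Members outside a group could be nearer, since Cxcl1 lay 0.50 from Cxcl16. Cxcl11 lay 0.61 from Cxcl16, and Cxcl10 lay 0.81 from Cxcl13.

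**Figure D3:**
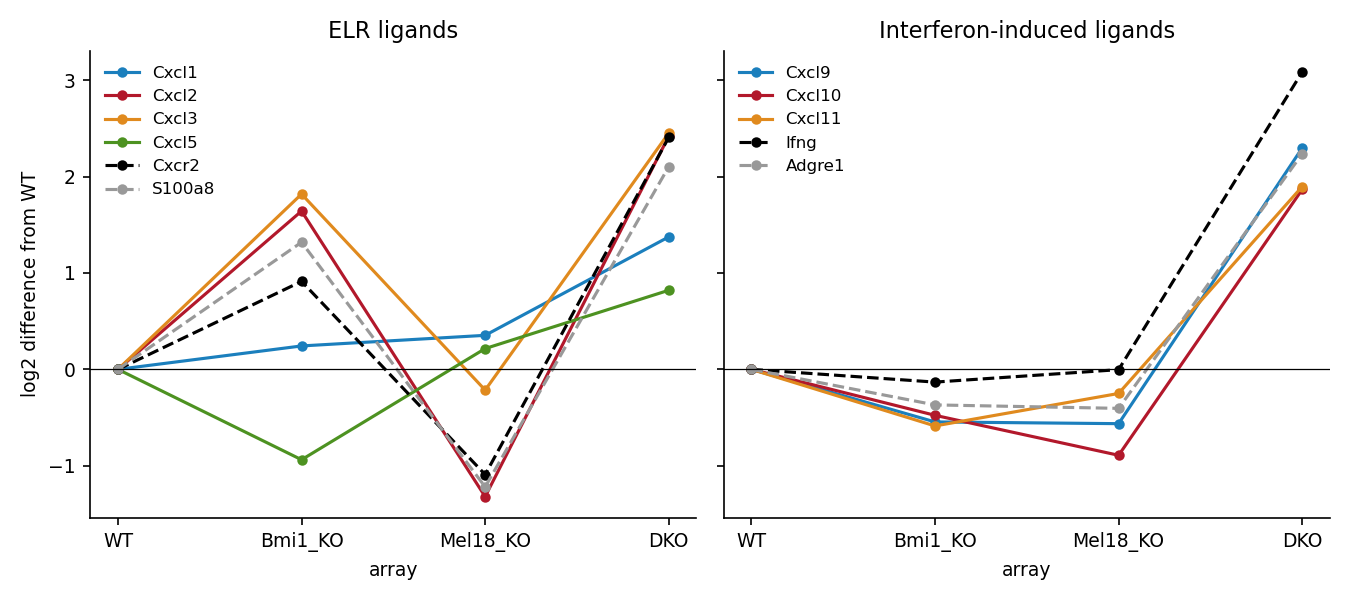
Log2 difference from WT (vertical axis) on the 4 arrays (horizontal axis), for the ELR ligands with Cxcr2 and the neutrophil gene S100a8 (left) and for the interferon-induced ligands with Ifng and the macrophage gene Adgre1 (right); lines join the points of 1 gene and mark no order of the arrays. On the left Cxcl2, Cxcr2 and S100a8 lie above 0 on Bmi1_KO and below 0 on Mel18_KO, and on the right all 5 genes are at or under 0 on both single deletions. Ifng and Adgre1 are under the floor on every array but DKO. Adgre1 does not stand for its list, whose median difference from WT was 0.17 on Bmi1_KO and -0.28 on Mel18_KO.

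Cxcl13 and Cxcl16 were highest on DKO, and Cxcl14 was near background throughout. Cxcl13, the B cell attractant of lymphoid follicles, had log2 intensities of 7.46 (WT), 7.18 (Mel18_KO), 8.05 (Bmi1_KO) and 10.21 (DKO). Its DKO value was 6.75-fold above WT, the largest fold of the 10 members in that comparison, and 44 analysed genes had a larger difference. Bmi1_KO was also above WT, by 0.60, and above Mel18_KO by 0.88, both more than the error scale. Cxcl16, which exists as an anchored and as a shed form, had log2 intensities of 8.41 (WT), 8.47 (Mel18_KO), 8.47 (Bmi1_KO) and 10.15 (DKO). The other 3 arrays agree within 0.06, and DKO was 3.34-fold above WT. Cxcl14 had log2 intensities of 5.59 (WT), 5.42 (Mel18_KO), 5.65 (Bmi1_KO) and 5.81 (DKO), all under the floor, and its 4 values span 0.39, less than the error scale.

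Relative to the sum of the single differences, DKO lay above additivity for all 10 members and at least 2-fold above it for 7, where 8.19% of analysed genes were at least 2-fold above and 6.43% below. After cyclic loess the split of all genes went from 1026 above and 805 below to 1203 and 521, and Cxcl3 passed 2-fold at 1.01. The departure was 3.40 for Cxcl9, 3.23 for Cxcl10 and 2.73 for Cxcl11, with a median of 3.23. It was 2.10 for Cxcl2, 1.54 for Cxcl5, 0.85 for Cxcl3 and 0.78 for Cxcl1, with a median of 1.20. Cxcl13 departed by 2.44, Cxcl16 by 1.63 and Cxcl14 by 0.33. By the bound used for a difference, the typical error of a departure is at most 0.576, which the departure of Cxcl14 alone does not exceed. That bound was taken from the spread of the departures over all genes, so exceeding it is no test. The low values of the interferon-induced genes on both single deletions, read against WT, enter theirs. A high value on WT raises a departure as low values on the single deletions do. The part of the WT array, with its seminal vesicle transcripts, in these departures was not tested.

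Among the receptors, Cxcr2 lay in the order of Cxcl2 across the arrays, and Cxcr3 was level. Cxcr2, carried by neutrophils, had log2 intensities of 7.96 (WT), 6.87 (Mel18_KO), 8.88 (Bmi1_KO) and 10.37 (DKO). Its differences from WT were 2.41 on DKO, 0.91 on Bmi1_KO and -1.09 on Mel18_KO. Cxcr1, the other ELR receptor, had a log2 intensity of 6.21 on DKO and between 5.32 and 5.65 elsewhere. Cxcr3, the receptor of the interferon-induced ligands, was level at 6.15 (WT), 6.44 (Mel18_KO), 6.06 (Bmi1_KO) and 6.16 (DKO). Cxcr4, whose ligand is Cxcl12, read 8.67 on DKO against 6.93 to 7.34 on the other arrays. Cxcr5 and Cxcr6, the receptors of Cxcl13 and Cxcl16, and the scavenging receptors Ackr1, Ackr3 and Ackr4 were under the floor on all 4 arrays. Of the 4 receptors above the floor, 2 were at least 2-fold higher on DKO than on WT and 0 lower, beside 7.33% and 8.19% of all genes.

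Of 18 genes of the NF-kB and interleukin-17 list above the floor, 9 exceeded WT at least 2-fold on DKO and 0 lay as far below it (median 1.00), where all genes gave 7.33% and 8.19%, and the 9 became 6 with median centring. Il1a, an alarm cytokine, had log2 intensities of 8.76 (WT), 7.07 (Mel18_KO), 10.30 (Bmi1_KO) and 11.64 (DKO), and Il1b, its secreted relative, had 10.42, 8.91, 11.16 and 12.28 in the same order. Both follow the order of Cxcl2, high on DKO and Bmi1_KO and low on Mel18_KO, and both were at least 2-fold lower on Mel18_KO than on WT. Tnf (8.82, 8.61, 8.71 and 10.53 in the same order) and Nfkbia, the NF-kB inhibitor that NF-kB itself induces (9.98, 10.12, 10.38 and 11.25), were highest on DKO. Others had another order: Il17rc, a subunit of the interleukin-17 receptor, was lowest on DKO (-0.56 against WT), and Il17c and Cebpd were highest on Mel18_KO. Il17a and Csf2 were under the floor. Il17f, among the 9 called genes, passed the floor on DKO alone (6.57), so the floor selected it for being high there.

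Against WT the interferon-gamma list had the larger share of called genes of the interferon lists, and against the single deletions the type I list did. Of 13 genes of the interferon-gamma pathway, 6 exceeded WT at least 2-fold on DKO and 0 lay as far below it (median 0.96, all genes 7.33% and 8.19%). The 6 became 4 with median centring, 4 with 32 added before log2 and 7 with cyclic loess. Ifng itself had log2 intensities of 5.66 (WT), 5.66 (Mel18_KO), 5.53 (Bmi1_KO) and 8.74 (DKO), so it passed the floor on DKO alone and its difference from WT (3.08) is rough. It is among the 6 called genes, and the floor selected it for being high on DKO. Cd274, which encodes the checkpoint ligand PD-L1, Ido1, a tryptophan-degrading enzyme, and Irf1, a transcription factor, were higher than on WT by 2.17, 2.10 and 1.22. Among 9 genes induced by type I interferon 1 exceeded WT at least 2-fold on DKO and 0 lay as far below it (median 0.39), near the 7.33% and 8.19% of all genes, and the 1 was lost with median centring. On Bmi1_KO 0 were above and 3 below (median -0.77), where all genes gave 0.551% and 0.359%. Rsad2, Ifit2 and Ifit1, antiviral effectors, gave -1.26, -1.18 and -1.14 there, next to the -0.48 to -0.59 of Cxcl9, Cxcl10 and Cxcl11. Ifit3 was the highest of the list on DKO against WT at 1.06. Against the mean of the single deletions 5 of the 9 type I genes were at least 2-fold higher, with a median of 1.08, and 4 of the 13 interferon-gamma genes, with a median of 0.75, beside 7.33% of all genes. Ifng is among these 4 too. The difference between the lists was not tested.

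Proteases that trim or release chemokines and genes of lymphoid organisation were also counted. Of 7 proteases 4 exceeded WT at least 2-fold on DKO and 0 lay as far below it (median 1.08, all genes 7.33% and 8.19%). Mmp8, the neutrophil collagenase, had log2 intensities of 8.38 (WT), 5.69 (Mel18_KO), 9.70 (Bmi1_KO) and 11.04 (DKO), again in the order of Cxcl2, and is in the neutrophil list too. Anpep, a surface aminopeptidase, Mmp9 and Mmp12 were higher than on WT by 1.75, 1.72 and 1.08. Dpp4, which inactivates Cxcl9 and Cxcl10, and Adam10 and Adam17, which release Cxcl16 from the membrane, differed from WT by -0.21, 0.49 and 0.14. Of 7 lymphoid organisation genes above the floor 2 were at least 2-fold higher on DKO and 0 lower, with a median of 0.49, beside 7.33% and 8.19% of all genes. These were Tnfsf13b, the B cell survival factor BAFF (1.65), and Ccr7 (1.16), while Ccl19 and Ltb gave 0.61 and 0.49, and Lta, Cr2 and Glycam1 were under the floor.

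White blood cell transcripts differed along with these chemokines in an isolate for which no sorting is described. In such bulk RNA more cells of a type and more RNA per cell cannot be told apart. Of 13 neutrophil genes above the floor 10 were at least 2-fold higher on DKO than on WT and 0 lower (all genes 7.33% and 8.19%). On Bmi1_KO against WT 8 were higher and 0 lower (all genes 0.551% and 0.359%). On Mel18_KO against WT 0 were higher and 6 lower (all genes 0.144% and 0.814%). The summed intensity of all 15 was 14627 (WT), 10617 (Mel18_KO), 20767 (Bmi1_KO) and 30366 (DKO), the order of Cxcl2 and Cxcr2. S100a8, a calprotectin subunit, gave 2.10, 1.32 and -1.22 for the 3 arrays against WT. Mpo and Elane were under the floor, and Ly6g and Cd177 were high but level or lower on DKO (-0.09 and -0.61). Of 11 macrophage genes 9 were at least 2-fold higher on DKO than on WT and 0 lower (all genes 7.33% and 8.19%). On the single deletions 0 passed in either direction. Among the 9, Adgre1 and Ms4a7 passed the floor on DKO alone (8.22 and 6.84), so the floor selected them for being high there. The summed intensity of the 11 genes was 5493 on DKO and 1241 to 1575 elsewhere, the order seen for Cxcl16 in so far as DKO alone was high. Their part in the chemokine values was not tested.

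Most lymphocyte genes were near or under the floor, with Jchain on DKO (9.15), Cd3e (7.06 to 7.70) and Cd79b (6.85 to 7.72) above it. Of 8 T and natural killer cell genes above the floor 1 (Cd3g, 1.28) was at least 2-fold higher on DKO than on WT and 0 lower, near the 7.33% and 8.19% of all genes, and 0 were higher with 32 added before log2. The summed intensity of 14 genes was 1016 on DKO and 729 to 841 elsewhere. Cd3d, Cd8b1, Zap70, Ncr1, Klrb1c and Cd28 were under the floor. Of 5 B cell genes above the floor 2 were at least 2-fold higher on DKO than on WT and 0 lower, beside 7.33% and 8.19% of all genes. These were the antibody joining chain Jchain (2.91) and Ms4a1 (1.01), and 1 was left with median centring, cyclic loess or 32 added. Ms4a1 passed the floor on DKO alone (6.04), so the floor selected it for being high there. The summed intensity of 10 genes was 1117 on DKO and 499 to 745 elsewhere, and Jchain alone gave 568 of the DKO sum. Cd79a and Cd79b were highest on Mel18_KO, at 1.35 and 0.87 above WT, against 0.36 and 0.50 on DKO. The median difference of the list from WT was 0.86 on Mel18_KO and 0.50 on DKO. Cd22, Pax5, Blk, Fcer2a and Cr2 were under the floor. Endothelial genes were at least 2-fold higher on DKO than on WT in 5 of 9 cases and fibroblast genes in 2 of 9. In either list 0 were lower, beside 7.33% and 8.19% of all genes. Emcn, among the 5, passed the floor on DKO alone (6.18). The summed intensities were 1534 against 559 to 800 and 3588 against 1455 to 2343, and the part of these genes was not tested either. The endothelial count was 3 with median centring, 2 with 32 added and 1 at a floor of 8. The markers of the labelled cell type were present, since 14 of 14 epithelial genes passed the floor. Of these, 0 differed 2-fold in any comparison, and their summed intensity lay between 57787 and 62955.

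In the RefSeq gene table of GRCm38.p6, 8 of the 10 lie on chromosome 5, Cxcl14 on chromosome 13 and Cxcl16 on chromosome 11. The ELR ligands stand in a run of CXC genes in the order Cxcl5, Ppbp, Pf4, Cxcl3, Cxcl15, Cxcl1 and Cxcl2, and the interferon-induced ligands in another, in the order Cxcl9, Art3, Cxcl10 and Cxcl11. The ELR group used here holds Cxcl1, Cxcl2, Cxcl3 and Cxcl5 only, so Ppbp and Cxcl15 enter none of its counts or medians. Ppbp, a platelet chemokine that lies beside Cxcl5, had log2 intensities of 9.83 (WT), 7.38 (Mel18_KO), 10.18 (Bmi1_KO) and 8.41 (DKO). It was lower on DKO than on WT by 1.42, against 0.82 higher for Cxcl5, so neighbours in the run lay on opposite sides of WT. Pf4, the other platelet chemokine of the run, differed from WT by -0.12 on DKO, and Cxcl15 was under the floor. Cxcl12 and Cxcl17, which lie elsewhere, differed from WT by 0.84 and 0.18 on DKO. Of the 5 CXC ligands outside the 10 members, 4 passed the floor, 0 were at least 2-fold higher on DKO than on WT and 1 was lower, where 7.33% and 8.19% of all genes were.

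The genes flanking these runs were read in the same way, a choice made after the members' values were seen. Beside the ELR run, Rassf6 and Mthfd2l differed from WT on DKO by 0.06 and -0.39, and Ereg, a growth factor of the epidermal growth factor family, by 0.96. Beside the interferon-induced run, Naaa, a lipid amidase, gave 0.97, Sdad1 -1.01, Nup54 -0.55 and Scarb2 0.15, against 1.87 to 2.30 for the 3 chemokines. Art3, between Cxcl9 and Cxcl10, was under the floor on all 4 arrays.

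**Figure D4:**
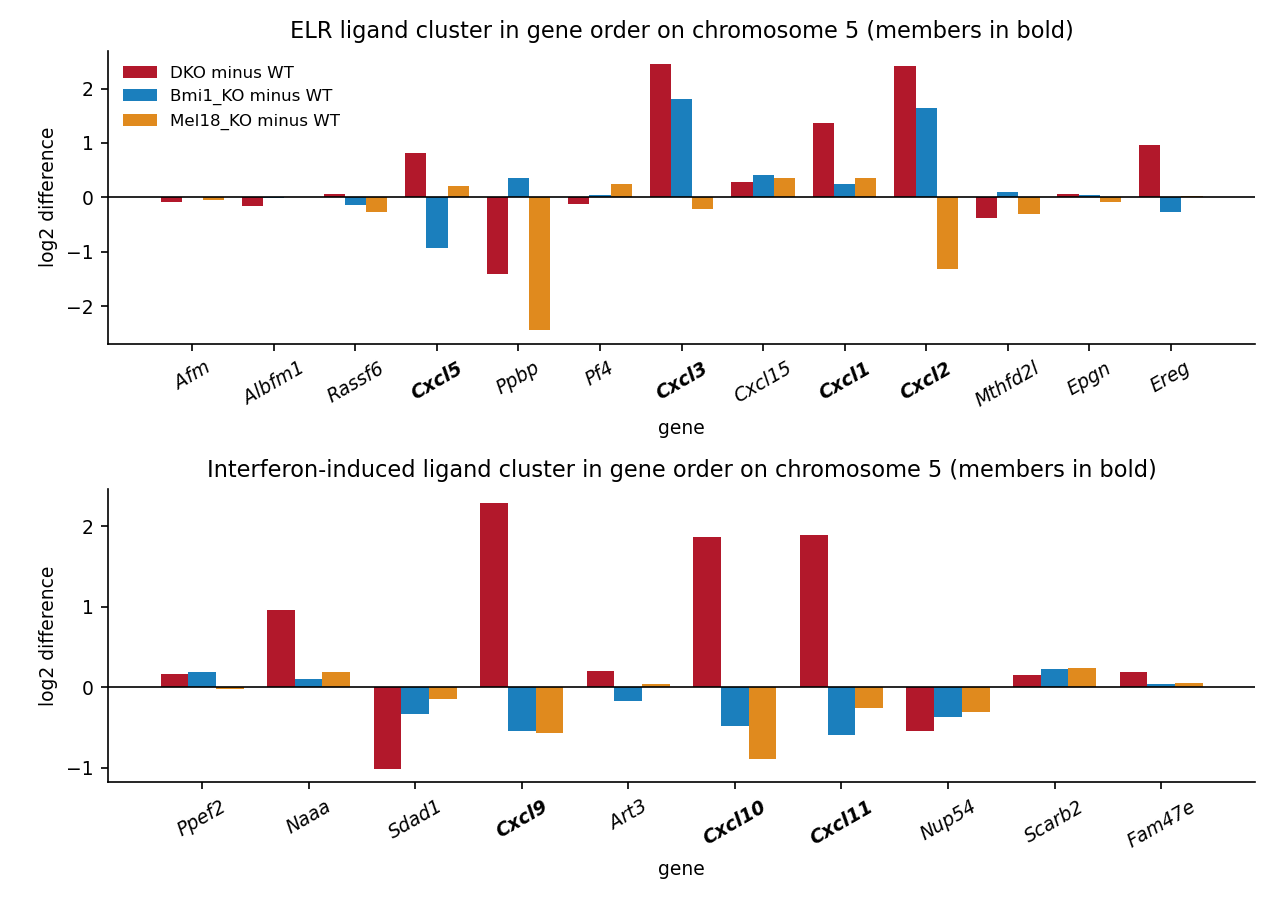
Log2 difference from WT (vertical axis) on DKO, Bmi1_KO and Mel18_KO for the ELR run (top) and the interferon-induced run (bottom) with 3 genes on each side, in gene order (horizontal axis, members in bold, 1 bar per difference of 2 arrays). The tallest upward red bars stand at members, though Ereg (0.96) and Naaa (0.97) exceed the member Cxcl5 (0.82). Ppbp points down at -1.42 on DKO and -2.45 on Mel18_KO, and Afm, Albfm1, Cxcl15, Epgn, Ppef2, Art3 and Fam47e are under the floor.

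Among 11901 other analysed genes, likeness was measured as the Euclidean distance between log2 values centred on the mean of the 4 arrays. Nearest to the mean ELR profile were Inpp5d, a phosphatase of blood cells (0.083), Pdpn (0.12), Cyth4 (0.14), Vill (0.15) and Abca1, a cholesterol exporter (0.17). Nearest to the mean interferon-induced profile were the macrophage receptor Adgre1 (0.16), Fgl2 (0.25), the tight junction gene Cldn1 (0.26), Bmp3 (0.31) and the monocyte receptor Ccr2 (0.32). Adgre1 had log2 intensities of 5.99 (WT), 5.58 (Mel18_KO), 5.62 (Bmi1_KO) and 8.22 (DKO), so only its DKO value is above the floor. Cldn1 (4.09 to 4.87 elsewhere, 6.69 on DKO) likewise passed the floor through DKO alone, so for both genes the floor selects a value that is high on DKO. Ccr2 was at 5.49 to 6.05 elsewhere and passed the floor narrowly on WT too (6.05). Cxcl13 was nearest to Slfn1 (0.17), the alarm cytokine Il33 (0.22) and G0s2 (0.23), and Cxcl16 to the interferon-inducible GTPase Gbp7 (0.074), Rasgrp1 (0.093) and the myeloid receptor Cd300c2 (0.099). Cxcl14, which hardly varied, lay nearest to Slc4a3, Ypel4 and Arhgap23 (0.018 to 0.025). Cd300c2 (7.62) and Ypel4 (6.03) also passed the floor on DKO alone, so the floor selected them for being high there. These distances rest on 4 arrays, and many genes that are high on DKO share such a shape.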

How the data were processed

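Gene expression in colon epithelial isolates was measured on Affymetrix Mouse Gene 1.0 ST arrays from 200 ng of total RNA, 1 array for each of 4 genotypes. The authors deposited linear intensities per probe set. The submitters' processing notes name Affymetrix Expression Console and RMA, with no version given in the sources used here. RMA brings the arrays to one distribution, so a difference shared by most genes is removed.

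Here log2 was taken, the 21789 probe sets with 1 symbol were named from the platform annotation, and the brightest per gene was kept. Genes at 6 or more on the highest array were analysed. Differences of arrays were called at 2-fold, with no test, as each genotype has 1 array. The number of arrays limits precision. Named were all members, the 9 receptors, up to 4 genes per pathway list with the largest difference of DKO from WT, and the nearest genes by profile. Marker genes, neighbours, Dpp4, Adam10, Adam17, Cxcr5, Cxcr6 and the 3 type I interferon genes lower on Bmi1_KO were named in addition. Members and lists were chosen with earlier results of these data known. Alternatives were median centring, cyclic loess (limma 3.58.1, R 4.3.3), log2 of the value plus 32, the mean of probe sets, other floors and folds, and leaving out single genes. Python 3.11.15, numpy 2.4.6 and pandas 2.3.3 were used. The code of the difference calls was run on simulated arrays with planted differences. Their noise was smaller than the error bound given here, so the run says nothing on the error rate of the calls. A gene of the lists with no value was not analysed here.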

Additional observations from a re-analysis of the deposited data

Results flagged for a closer look

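For 8 members the effect of a deletion on the log2 scale had opposite signs with and without the other deletion. Each effect is a difference of 2 arrays and the difference between effects was not tested. Every effect with the other gene present is read against the WT array. For loss of Bmi1, with Mel18 present and then with Mel18 deleted, Cxcl9 gave -0.55 and 2.86, Cxcl10 -0.48 and 2.76, Cxcl11 -0.59 and 2.15 and Cxcl5 -0.94 and 0.60. For loss of Mel18, with Bmi1 present and then with Bmi1 deleted, Cxcl9 gave -0.56 and 2.84, Cxcl10 -0.89 and 2.34 and Cxcl11 -0.25 and 2.48. Cxcl2 gave -1.32 and 0.78, Cxcl3 -0.22 and 0.63, Cxcl13 -0.28 and 2.16 and Cxcl14, which is under the floor, -0.17 and 0.16.

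The 2 effects of a gene differ by its departure from additivity, whichever deletion is read. This was 3.40 for Cxcl9, 3.23 for Cxcl10, 2.73 for Cxcl11, 2.44 for Cxcl13, 2.10 for Cxcl2, 1.54 for Cxcl5, 0.85 for Cxcl3 and 0.33 for Cxcl14. The single effects of Cxcl3, Cxcl11, Cxcl13 and Cxcl14 with loss of Mel18 alone are smaller than the error scale of 0.407, so their sign is not settled. The signs of the larger effects were not tested either.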

How the results depend on the processing

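Median centring, cyclic loess and the mean of probe sets moved none of the 60 member differences by more than the error scale of 0.407, and adding 32 before log2 moved 2 of 60, both of Cxcl11. No called difference changed sign. Calls at 2-fold changed for Cxcl5 on Bmi1_KO against WT (-1.01 with median centring, which gave 1 member lower in place of 0), for Cxcl1 on DKO against the single deletions (0.97 with 32 added) and for Cxcl3 in the departure from additivity (1.01 with cyclic loess). Median centring moved the median of all genes between Bmi1_KO and Mel18_KO from -0.03 to -0.15, and the sign of Cxcl9 and Cxcl16 there, both near 0, turned (-0.10 and -0.12), as did Cxcl14 and Cxcl16 on Bmi1_KO against WT (both -0.02). At 3-fold 3 of the NF-kB and interleukin-17 genes and 3 of the interferon-gamma genes exceeded WT on DKO, in place of 9 and 6. At 1.5-fold 2 members were lower on Bmi1_KO and 2 on Mel18_KO against WT, and at 3-fold 0 on Mel18_KO against WT and 0 on Bmi1_KO against Mel18_KO. Upward, Cxcl13 (1.51-fold) joined Cxcl2 and Cxcl3 on Bmi1_KO against WT at 1.5-fold. The shares of all genes at 1.5-fold and 3-fold were not counted, so these counts have no background beside them. Leaving out 1 gene at a time, the gap between the ELR and interferon-induced medians ranged from -0.52 to 0.52 on DKO against WT, from 0.79 to 2.19 on Bmi1_KO against WT and from -0.13 (without Cxcl2 or without Cxcl3) to 2.02 between the single deletions (0.94 with all 7). It kept its sign on Mel18_KO against WT (0.35 to 0.78), on DKO against the single deletions (-1.37 to -0.90) and in the departure from additivity (-2.38 to -1.69). No paired analysis was possible because each genotype has 1 array. Probe sets near the floor, such as Cxcl11 and Ifng on the single deletions, carry little signal over background.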
